A study of Mus musculus with 36 samples.

Results

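The genes described here are 37 mouse genes of DNA replication, taken as a named list: factors that license and fire origins, polymerases and their partners, enzymes that supply nucleotides, and factors that copy chromatin or protect the fork. The deposited tables list introns, so a gene was measured through the introns of it that match the GENCODE M21 annotation. Of the 37 genes, 36 had at least 1 listed intron, and together they had 532 of the 219945 introns listed, which fall in 31890 annotated genes. Fen1, the endonuclease that trims flaps from lagging-strand fragments, had no listed intron and therefore has no value. A gene's level is its spliced reads summed over its introns, scaled to the spliced reads of the library as counts per 1000000 (CPM), and a read that crosses several introns counts at each. Intron retention is given as the authors' percent value, called MSI here, which is 100 times the exon-intron reads divided by the sum of the exon-intron reads and 2 times the spliced reads.

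All animals were C57BL/6. Zrsr2-deficient (KO) and wild-type (WT) male littermates, 3 of each, gave sorted megakaryocyte-erythroid precursors (MEP), granulocyte-monocyte precursors (GMP) and common myeloid precursors (CMP), and 3 KO and 3 WT male embryos gave fibroblasts (MEF). Lin-Kit+ bone marrow cells of KO and WT mice were cultured and transduced with 1 of 2 hairpins against Zrsr1 (sh1 or sh10) or with a control hairpin, each in experiments 1 and 2, so that every hairpin and genotype has 2 libraries. The labels give no allele, age, promoter or mouse number for the Lin-Kit+ cells. A p-value there reflects only how far these libraries scatter, which may be technical. ZRSR2 and its paralogue ZRSR1 are splicing factors of the minor spliceosome, which removes U12-type introns, and the hairpins asked what loss of the paralogue adds. Zrsr1 has no listed intron, so its depletion could not be measured here. The introns of the replication genes were not classed as U12-type or other.

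Replication begins when the origin recognition complex, with Cdc6 and Cdt1, loads the Mcm2 to Mcm7 ring onto DNA before S phase. Cdc45 and the 4 Gins subunits then join that ring to form the active helicase, with Mcm10 assisting, and polymerases, the Pcna clamp and ligase copy both strands. Most of these genes are known E2F targets that are transcribed as cells enter S phase, so in blood progenitors their RNA is widely read as a sign of cycling. In RNA from a bulk population, fewer cycling cells and less RNA per cell cannot be told apart.

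Promoters of 4 members of the Mcm ring that fell under the hairpins described below are shown as examples, and each holds the letters marked in capitals. Each is the 300 bases from 250 before to 50 after a RefSeq start site on GRCm38.p6, written 5′ to 3′ on the strand of the gene. Capitals mark E2F letters, TTTGGCGC, TTTCCCGC, TTTGCCGC or TTTCGCGC on either strand, where neighbouring matches may overlap. Mcm3 lies at chr1:20820263-20820562 (minus strand), Mcm6 at chr1:128359656-128359955 (minus strand), Mcm7 at chr5:138171834-138172133 (minus strand) and Mcm5 at chr8:75109259-75109558 (plus strand).
Mcm3: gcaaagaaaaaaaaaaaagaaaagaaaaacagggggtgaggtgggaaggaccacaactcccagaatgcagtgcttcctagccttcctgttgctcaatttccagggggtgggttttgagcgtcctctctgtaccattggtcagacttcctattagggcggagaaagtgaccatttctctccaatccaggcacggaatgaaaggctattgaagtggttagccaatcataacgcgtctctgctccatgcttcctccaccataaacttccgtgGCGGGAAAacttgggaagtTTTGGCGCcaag
Mcm6: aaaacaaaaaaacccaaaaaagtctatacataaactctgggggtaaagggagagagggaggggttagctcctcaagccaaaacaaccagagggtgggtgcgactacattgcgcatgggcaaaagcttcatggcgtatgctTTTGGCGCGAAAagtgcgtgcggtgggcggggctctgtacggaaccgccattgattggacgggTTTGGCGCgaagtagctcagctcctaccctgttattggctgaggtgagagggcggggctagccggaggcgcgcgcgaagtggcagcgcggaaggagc
Mcm7: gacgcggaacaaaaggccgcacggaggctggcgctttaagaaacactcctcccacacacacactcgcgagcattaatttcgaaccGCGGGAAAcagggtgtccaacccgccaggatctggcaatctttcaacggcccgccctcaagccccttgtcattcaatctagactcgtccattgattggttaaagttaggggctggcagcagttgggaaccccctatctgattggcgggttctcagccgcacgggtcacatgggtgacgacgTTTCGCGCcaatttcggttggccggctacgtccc
Mcm5: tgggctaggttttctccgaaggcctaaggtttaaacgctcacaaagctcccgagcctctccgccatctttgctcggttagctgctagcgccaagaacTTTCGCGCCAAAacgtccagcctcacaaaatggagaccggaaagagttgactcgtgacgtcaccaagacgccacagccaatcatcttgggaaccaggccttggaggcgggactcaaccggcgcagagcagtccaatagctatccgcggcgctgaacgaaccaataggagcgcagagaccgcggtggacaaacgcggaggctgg

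RefSeq promoters were matched for 31 of the 37 genes, 40 promoters in all, and not for Tipin, Gins1, Pole, Mcm4, Gins4 and Gins2. E2F letters stood in 14 of the 40 promoters, 35.0%, against 2.26% of all 32851 mouse promoters of that length. The 14 genes were Mcm3, Mcm5, Mcm6, Mcm7, Orc1, Cdc6, Cdt1, Gins3, Lig1, Pold1, Pold3, Pole2, Dnmt1 and Uhrf1. The promoters of Rrm1, which had the smallest p under the hairpins in KO cells, and of Mcm2, which fell in both genotypes, held none. The letters CCAAT, on either strand, stood in 24 of the 40 promoters, 60.0%, against 37.4% of all promoters. A match describes letters in this window and is not evidence that a factor binds there.

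Libraries held 30481450 to 84832431 spliced reads. Zrsr2 itself had 0 to 57 spliced reads in KO libraries and 725 to 2147 in WT libraries. Summed erythroid markers reached 7191 to 7901 CPM in KO MEP and 7488 to 8286 CPM in WT MEP, against at most 2151 CPM in CMP and GMP. Megakaryocyte markers went the other way, with 43.5 to 51.6 CPM in KO MEP and 34.8 to 63.6 CPM in WT MEP. In CMP these markers summed to 985 to 1211 CPM in KO cells and 813 to 1154 CPM in WT cells. Markers of granulocyte-monocyte progenitors led in GMP and fibroblast markers in MEF. The Lin-Kit+ libraries held 4094 to 15670 CPM of mast cell and basophil markers and 4038 to 30060 CPM of mature neutrophil markers. Reads at 1 boundary only were found in 24.6% to 31.0% of introns holding 20 or more boundary reads in experiment 2, against 7.86% to 12.8% in experiment 1.

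Across the WT cells the replication genes were low in fibroblasts and high in all 3 progenitors. The 36 genes summed to 2289 ± 332 CPM in MEF, 10960 ± 562 CPM in MEP, 8877 ± 253 CPM in GMP and 9843 ± 351 CPM in CMP (SD, n = 3 each). The mean level was highest in MEP for 27 genes, in CMP for 7 (Mcm3, Mcm6, Pcna, Tyms, Dnmt1, Pold3 and Pole) and in GMP for 2 (Cdc45 and Gins1), and it was lowest in MEF for all 36. Levels of different genes are compared per intron, as the median of the spliced counts over a gene's listed introns, scaled to CPM. On that scale Pcna, the sliding clamp that holds polymerases on DNA, led in WT CMP with 116 ± 0.561 CPM per intron, ahead of Mcm6 with 60.1 ± 1.91 and Mcm7 with 56.0 ± 2.06 (SD, n = 3 each). Orc1, the ATPase subunit of the origin recognition complex, had 1.82 ± 0.226 CPM per intron there. Gins3, a subunit of the active helicase, had 1.04 ± 0.191 and rests on a single intron.

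**Figure D1:**
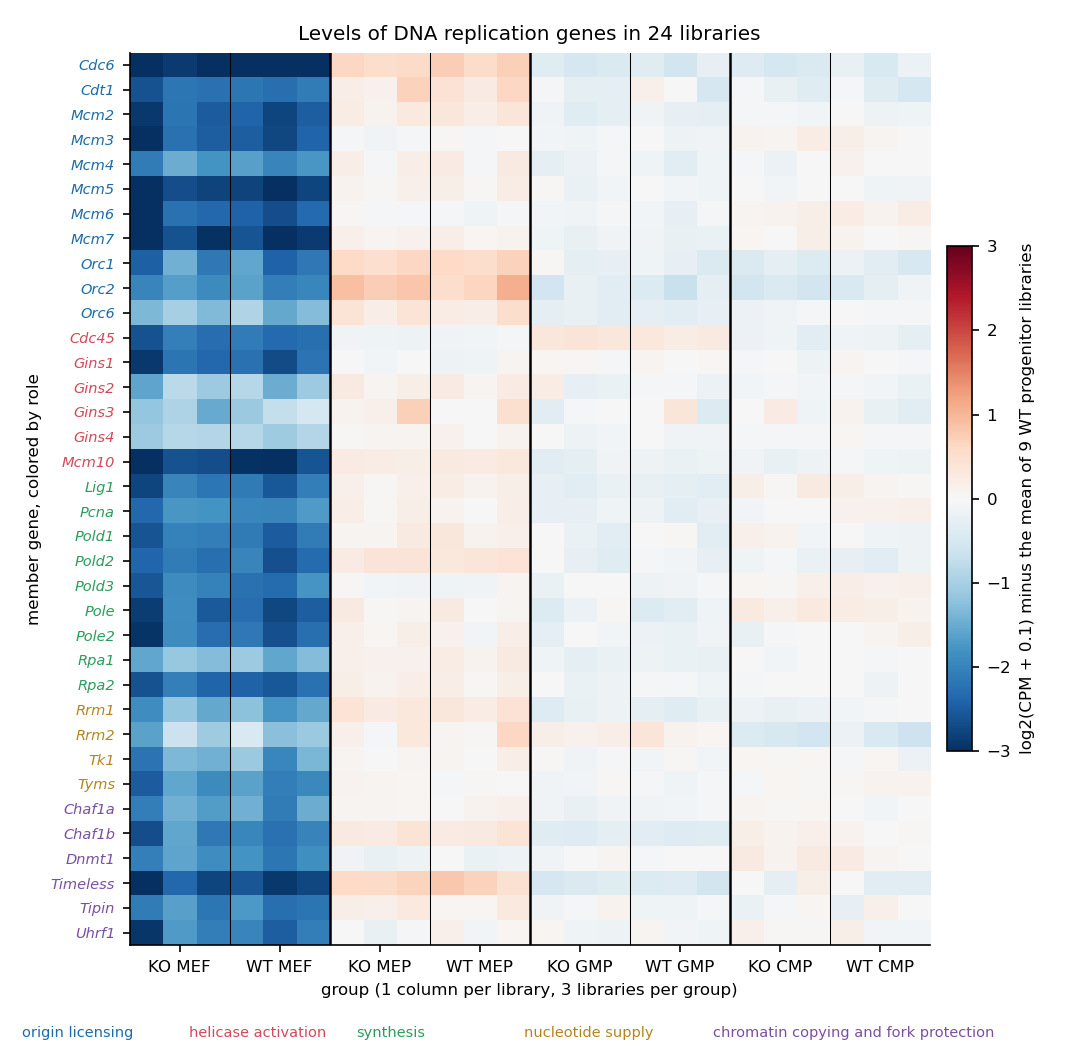
Level of the 36 measured genes in the 24 libraries of KO and WT MEF, MEP, GMP and CMP, as log2(CPM + 0.1) minus the mean of the 9 WT progenitor libraries, with red for higher and blue for lower. The MEF columns are blue for every gene, MEP columns are reddest for Orc1, Orc2, Cdc6 and Timeless, and KO and WT columns of a cell type look alike.

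WT MEP stood above WT CMP for most of the genes, with Orc2, Cdc6 and Orc1, which license origins, and Timeless changing most. In edgeR's quasi-likelihood test 25 of the 36 genes rose and 0 fell, where 21.2% of 17563 tested genes rose and 25.5% fell. The median change was 0.31 on the log2 scale for the 36 genes, against −0.05 for all tested genes. By role, 9 of 11 licensing factors rose, 4 of 6 helicase activators, 5 of 9 genes of synthesis, 3 of 4 of nucleotide supply and 4 of 6 of chromatin copying and fork protection. With library totals in place of TMM scaling, chosen after seeing the data, 17 genes rose and 3 fell (Mcm6, Dnmt1 and Pold3). Of all tested genes 16.3% rose and 30.3% fell under that scaling, and their median moved to −0.19.

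Cdc6 loads the Mcm ring together with Cdt1. It had 212, 188 and 209 CPM in WT MEP, against 110.2, 93.1 and 112 CPM in WT CMP. Every MEP library was above every CMP library, and the log2 change was 1.09 (SE 0.08, edgeR adjusted p 1.12e-08). Orc2, a core subunit of the origin recognition complex, had 193, 209 and 285 CPM in WT MEP and 98.6, 109 and 125 CPM in WT CMP, a log2 change of 1.19 (SE 0.14, adjusted p 1.90e-06). Orc1 had 40.8, 38.9 and 43.9 CPM in WT MEP and 23.9, 21.6 and 19.5 CPM in WT CMP, a log2 change of 1.06 (SE 0.11, adjusted p 6.85e-07). The groups did not overlap for either subunit. Timeless, which with Tipin steadies the fork, had 440.0, 405 and 346 CPM in WT MEP and 253, 200 and 202 CPM in WT CMP, a log2 change of 1.0 (SE 0.11). Cdt1 rose by 0.88 and Rrm2, the small subunit of ribonucleotide reductase, by 0.82. Orc6, the smallest subunit of the origin complex, Mcm2, Mcm4, Mcm5 and Mcm7 rose by 0.22 to 0.55 on the log2 scale, and Mcm3 and Mcm6 did not pass.

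Against WT GMP, which were set beside the same MEP libraries, 24 genes rose and 1 fell in WT MEP, where 21.1% of tested genes rose and 24.8% fell. The median log2 change was 0.29 for the 36 genes and −0.03 for all tested genes. The largest log2 changes were 1.23 for Orc2, 1.11 for Timeless, 1.05 for Cdc6, 0.87 for Orc1, 0.67 for Chaf1b and 0.63 for Rrm1. Chaf1b is a subunit of the complex that places histones on new DNA, and Rrm1 is the large subunit of ribonucleotide reductase. Of the 9 measured genes of synthesis 8 rose, among them Pcna, Lig1, which seals lagging-strand fragments, and Pole, the catalytic subunit of the leading-strand polymerase. Rpa1 and Rpa2, which coat single-stranded DNA, Pold1 and Pold2, of the lagging-strand polymerase, and Pole2, the second subunit of the leading-strand polymerase, were the others. Under library totals the counts were again 24 and 1, where 21.1% of tested genes rose and 24.7% fell. Without 1 library Pold1 lost its call in 4 of 6 fits, and Pole2 and Rpa2 in 1 each.

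Cdc45 was the gene that fell in WT MEP against WT GMP. It joins the Mcm ring to start the helicase, and it had 159, 162 and 163 CPM in WT MEP, 212, 198.5 and 207 CPM in WT GMP and 155, 154 and 142 CPM in WT CMP. Its GMP libraries lay above all other WT libraries, while its MEP libraries lay a little above those of CMP. The log2 change was −0.35 (SE 0.06, adjusted p 0.000124) in MEP against GMP, 0.24 (SE 0.06, adjusted p 0.00345) in MEP against CMP and 0.59 (SE 0.06, adjusted p 2.02e-06) in GMP against CMP. In KO mice Cdc45 had 214, 223 and 217 CPM in GMP and 151, 156 and 134 CPM in CMP.

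**Figure D2:**
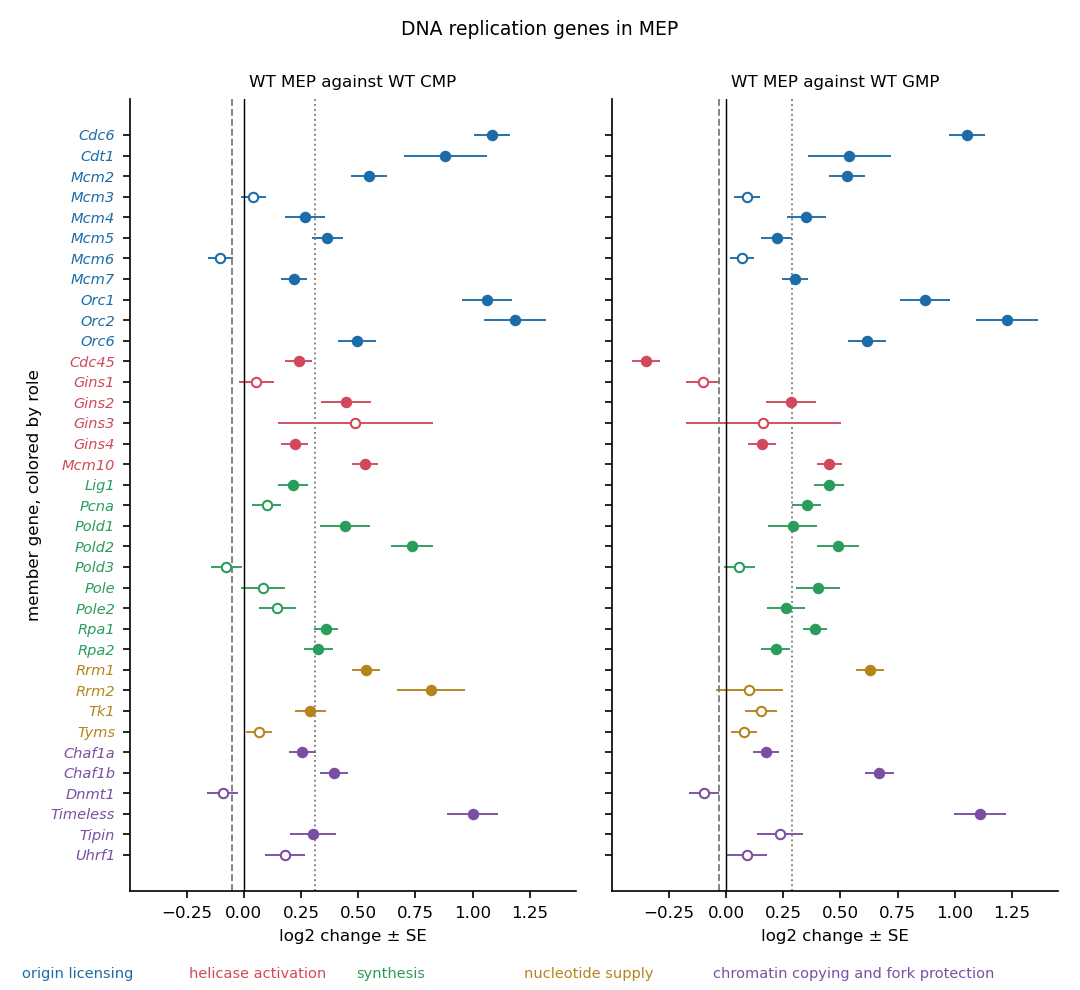
Log2 change of each gene in WT MEP against WT CMP and against WT GMP with its SE, 3 libraries a group, filled where the adjusted p was under 0.05, with the median of the 36 genes dotted and that of all tested genes dashed. Most points lie right of 0 in both panels, with Orc2, Cdc6, Orc1 and Timeless farthest right, and Cdc45 lies left of 0 against GMP alone among the filled points.

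Between WT GMP and WT CMP 7 of the 36 genes passed, where 24.8% of 17563 tested genes passed. In WT GMP against WT CMP 2 of the 36 genes rose and 5 fell, where 12.5% of tested genes rose and 12.3% fell, and the median log2 change was 0.03 for the 36 genes and 0 for all tested genes. Rrm2 had 283, 239 and 229 CPM in WT GMP and 195.5, 162 and 144 CPM in WT CMP, a log2 change of 0.72 (SE 0.15, adjusted p 0.00179). Pcna had 461, 404 and 435 CPM in WT GMP and 563, 564 and 574 CPM in WT CMP, a log2 change of −0.25 (SE 0.06, adjusted p 0.00729). Neither gene's groups overlapped. The other genes that fell were Pole by 0.32, Chaf1b by 0.28, Lig1 by 0.23 and Mcm6 by 0.17, of which Pole and Mcm6 lost their calls in 3 of 6 fits without 1 library and Lig1 in 1. Library totals gave 2 genes higher and 13 lower, where 8.37% of tested genes rose and 18.4% fell, and moved the median of all tested genes to −0.13.

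In WT MEF against the 9 WT progenitor libraries 35 of the 36 genes fell, where 30% of 18307 tested genes fell and 39.4% rose. The median log2 change was −1.95 for the 36 genes and 0.17 for all tested genes. The largest falls were in Cdc6 (log2 change −3.07), Mcm10 (−2.74), Mcm5 (−2.73), Mcm7 (−2.68), Timeless (−2.56) and Mcm2 (−2.36). Cdc6 had 15.6, 10.6 and 14.3 CPM in WT MEF, below every progenitor library, and Mcm5 had 96.4, 70.9 and 98.0 CPM there, against 608 to 779.9 CPM in WT progenitors. Rrm2 changed least among the genes that fell, by a log2 change of −0.74. Gins3 had 0.484, 0.671 and 0.773 CPM in WT MEF and did not pass (−0.69, adjusted p 0.0812). Fibroblasts and progenitors differ in tissue, age and growth in culture, so cell type cannot be told apart from these.

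No replication gene passed the test between Zrsr2 KO and WT cells, in any cell type. The 36 genes summed to 10730 ± 425 CPM in KO MEP and 10960 ± 562 CPM in WT MEP, to 8925 ± 228 CPM in KO GMP and 8877 ± 253 CPM in WT GMP, to 9867 ± 280 CPM in KO CMP and 9843 ± 351 CPM in WT CMP, and to 2267 ± 528 CPM in KO MEF and 2289 ± 332 CPM in WT MEF (SD, n = 3 each). In edgeR's quasi-likelihood test 0 of the 36 genes passed in KO against WT CMP, GMP, MEP or MEF, where 0.0228%, 0.0171%, 0.0456% and 0% of tested genes passed. At an unadjusted p under 0.05 the counts were 4, 0, 0 and 0, against 5.92%, 2.55%, 4.41% and 1.58% of tested genes, and DESeq2 also called 0 in each. The median log2 changes were −0.00 in CMP, 0.01 in GMP, −0.05 in MEP and 0.02 in MEF, all within 0.05 of the medians of all tested genes. Estimates were negative for 18, 15, 28 and 15 of the 36 genes in that order. Over all tested genes the shares were 50.4%, 51.6%, 53.6% and 52.9%. Standard errors of single genes in the progenitors were 0.05 to 0.34 on the log2 scale. In MEF even Zrsr2 itself, with a log2 change of −6.54, had an adjusted p of 0.9999, so a gene could be nearly absent and still not pass there.

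The smallest p-values in KO against WT CMP belonged to Pcna, Pole2 and Cdc6. Pcna had 486, 515 and 509.9 CPM in KO CMP and 563, 564 and 574 CPM in WT CMP. All 3 KO libraries lay below the 3 WT libraries, and the log2 change of −0.18 (SE 0.06) had an adjusted p of 0.82. Pole2 had 95.6, 107 and 111 CPM in KO CMP and 112, 117.5 and 126 CPM in WT CMP, and Cdc6 had 97.8, 88.4 and 95.2 CPM in KO CMP and 110.2, 93.1 and 112 CPM in WT CMP. Pole2 did not overlap between the genotypes and Cdc6 did, and their adjusted p was 0.83 each.

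In GMP the leading genes were Cdc45, Chaf1a and Pole, and in MEP Rpa1, Uhrf1 and Mcm10, each with an adjusted p of 1. Cdc45 had 214, 223 and 217 CPM in KO GMP and 212, 198.5 and 207 CPM in WT GMP, without overlap, a log2 change of 0.08 (SE 0.06). Uhrf1, which guides the maintenance methyltransferase Dnmt1 to new DNA, had 349, 293 and 337 CPM in KO MEP and 383, 325 and 361 CPM in WT MEP, with overlap. Rpa1 had 344, 335 and 337 CPM in KO MEP and 359, 331 and 372 CPM in WT MEP, also with overlap. Mcm10 had 157, 154 and 151 CPM in KO MEP and 160.4, 158 and 165 CPM in WT MEP, without overlap, a log2 change of −0.09 (SE 0.06). In GMP Chaf1a had 101, 94.1 and 102 CPM in KO cells and 101, 104 and 107 CPM in WT cells, and Pole had 153, 178 and 207 CPM in KO cells and 152, 162 and 186 CPM in WT cells. Both overlapped. In MEF the leading genes were Gins3 (log2 change −0.48, SE 0.42), Cdt1 (−0.13, SE 0.14) and Dnmt1 (0.12, SE 0.15), each with an adjusted p of 0.9999 and with overlap. Gins3 had 0.460, 0.567 and 0.343 CPM in KO MEF and 0.484, 0.671 and 0.773 CPM in WT MEF. Cdt1 had 18.5, 25.1 and 23.8 CPM in KO MEF and 25.0, 23.4 and 26.4 CPM in WT MEF, and Dnmt1 had 202, 277.5 and 230.1 CPM in KO MEF and 241, 185 and 235 CPM in WT MEF. The KO effect was set between cell types by an interaction term, and 0 of the 36 genes passed for GMP minus CMP, MEP minus CMP or MEP minus GMP, where 0%, 0.0114% and 0.0114% of genes passed. At an unadjusted p under 0.05 there were 2, 0 and 0, against 4.88%, 5.89% and 3.45% of tested genes, and DESeq2 called 0. The smallest p was that of Pcna for GMP minus CMP and for MEP minus CMP, with log2 differences of 0.22 (SE 0.09, adjusted p 0.957) and 0.18 (SE 0.09, adjusted p 0.844), and that of Cdc45 for MEP minus GMP, at −0.15 (SE 0.08, adjusted p 1).

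Under hairpins against Zrsr1 many of the replication genes fell in Lin-Kit+ cells of both genotypes, and none rose. The fit took the mean of sh1 and sh10 against the control hairpin with the experiment as a block. In KO cells 19 of the 36 genes fell and 0 rose, where 4.38% of 17828 tested genes fell and 4.62% rose. In WT cells 15 fell and 0 rose, where 4.11% of tested genes fell and 4.64% rose. For the mean of both hairpins the estimate was negative for all 36 genes in both genotypes. Over all tested genes 50.88% were negative in KO cells and 52.45% in WT cells. The median log2 change was −0.54 in KO cells and −0.41 in WT cells, against −0.01 and −0.03 for all tested genes. With sh10 alone the estimate was positive for 1 of the 36 genes in KO cells and for 8 in WT cells. With sh1 alone it was positive for 0 in both. Under library totals 20 genes fell in KO cells, where 5.17% of tested genes fell and 3.20% rose. In WT cells 17 fell under that scaling, where 5.36% of tested genes fell and 3.15% rose.

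Summed over the 36 genes, experiment 1 gave 4686 CPM under sh1, 5284 under sh10 and 7164 under the control hairpin in KO cells, and 5304, 5745 and 7571 CPM for the same hairpins in WT cells. Experiment 2 gave 2468, 2247 and 3844 CPM in KO cells and 2514, 3260 and 4302 CPM in WT cells, again for sh1, sh10 and the control. Every hairpin library lay below the control of its genotype and experiment, while experiment 2 lay below experiment 1 in every group. Within an experiment, sh1 was below its control for 36, 36, 36 and 35 of the 36 genes in KO experiments 1 and 2 and WT experiments 1 and 2. For sh10 the counts were 35, 34, 34 and 30. Each count sets 1 hairpin library against 1 control library, and the share of all genes below that control was not taken. These values use library totals, under which the median change of all tested genes was −0.09 in KO cells and −0.14 in WT cells. Median log2 ratios with a pseudocount of 0.1 CPM ran from −0.39 for sh10 in WT experiment 1 to −0.88 for sh10 in KO experiment 2. In the values that follow, experiment 1 stands before experiment 2 for each hairpin.

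**Figure D3:**
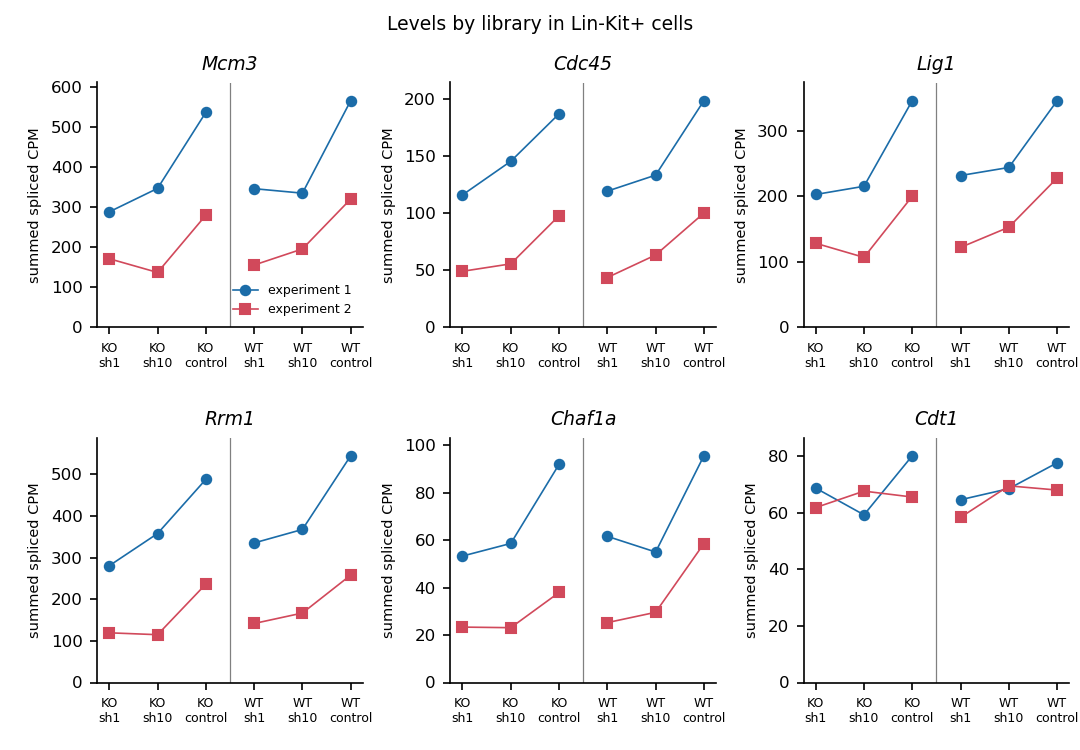
Level in CPM of Mcm3, Cdc45, Lig1, Rrm1, Chaf1a and Cdt1 in each of the 12 Lin-Kit+ libraries, with KO left of WT, hairpins sh1 and sh10 left of the control, circles for experiment 1 and squares for experiment 2. For 5 of the genes the control hairpin gives the highest circle and the highest square in each genotype, and Cdt1 is nearly flat in experiment 2.

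Among the licensing factors 5 of the 6 subunits of the Mcm ring fell in both genotypes. Mcm3 had 288 and 171 CPM under sh1, 347 and 137 CPM under sh10 and 536 and 279.8 CPM under the control hairpin in KO cells. In WT cells Mcm3 had 346 and 155.5 CPM under sh1, 335 and 196 CPM under sh10 and 565 and 320.1 CPM under the control hairpin. Within each experiment both hairpins lay below the control in both genotypes. The log2 change was −0.72 (SE 0.11, edgeR adjusted p 0.00557) in KO cells and −0.69 (SE 0.11, adjusted p 0.00656) in WT cells. Mcm6 fell by 0.71 in KO cells and by 0.48 in WT cells, Mcm7 by 0.68 and 0.40, Mcm5 by 0.66 and 0.43, and Mcm2 by 0.56 and 0.44, in that order of genotypes. Mcm5 had 294 and 117 CPM under sh1, 337.5 and 92.9 CPM under sh10 and 468 and 199 CPM under the control in KO cells. In WT cells Mcm2 had 181 and 109.5 CPM under sh1, 162 and 100.5 CPM under sh10 and 229.9 and 166 CPM under the control. For both genes every hairpin library lay below the control of its experiment. Mcm6 had 315.5 and 159.8 CPM under sh1, 387 and 155 CPM under sh10 and 533 and 309 CPM under the control in KO cells, and Mcm7 had 253 and 127.5, 269 and 99.4, and 393 and 216 CPM for the same hairpins there. Mcm4, the remaining ring subunit, did not pass in either genotype (log2 change −0.33, adjusted p 0.0997 in KO cells; −0.17, adjusted p 0.427 in WT cells).

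The loaders moved less evenly. Orc1 had 10.02 and 2.83 CPM under sh1, 12.1 and 2.75 CPM under sh10 and 22.3 and 5.52 CPM under the control in KO cells, a log2 change of −0.91 (SE 0.18, adjusted p 0.0145). In WT cells Orc1 did not pass (−0.38, adjusted p 0.263), and the difference between genotypes did not pass either (−0.53, SE 0.26, adjusted p 1). Cdt1, which the cell destroys once origins have fired, had 68.7 and 61.9 CPM under sh1, 59.3 and 67.7 CPM under sh10 and 80.2 and 65.6 CPM under the control in KO cells. The hairpins lay below the control in experiment 1 and on both sides of it in experiment 2, and the log2 change was −0.08 (SE 0.14, adjusted p 0.811). Cdc6, Orc2 and Orc6 had log2 changes of −0.20 to −0.53 in KO cells and −0.38 to −0.49 in WT cells and did not pass in either.

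Of the helicase activators, Cdc45, Gins2 and Mcm10 fell in both genotypes. Cdc45 had 116 and 49.0 CPM under sh1, 145 and 55.5 CPM under sh10 and 187 and 97.6 CPM under the control in KO cells, and 119 and 43.6, 133 and 63.3, and 198 and 99.96 CPM for the same hairpins in WT cells. Both hairpins lay below the control in each experiment, with log2 changes of −0.63 (SE 0.12, adjusted p 0.0114) in KO cells and −0.68 (SE 0.12, adjusted p 0.00891) in WT cells. Gins2, a subunit of the Gins ring, fell by 0.70 in KO cells (adjusted p 0.00796) and by 0.47 in WT cells (adjusted p 0.0394). In KO cells Gins2 had 21.6 and 10.2 CPM under sh1, 23.9 and 9.97 CPM under sh10 and 39.9 and 17.2 CPM under the control, with both hairpins below the control in each experiment. Mcm10 fell by 0.78 and by 0.62 in KO and WT cells. Gins1 and Gins4, other subunits of that ring, did not pass. Gins3 had 0.36 to 2.21 CPM in all 12 libraries, and its SE of 0.84 in KO cells leaves its change unresolved.

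Lig1 led the genes of DNA synthesis. It had 203 and 128 CPM under sh1, 215 and 107 CPM under sh10 and 346 and 200 CPM under the control in KO cells. In WT cells it had 232 and 122 CPM under sh1, 244 and 153 CPM under sh10 and 346 and 228 CPM under the control. The hairpins lay below the control in each experiment, with log2 changes of −0.66 (SE 0.09, adjusted p 0.00374) in KO cells and −0.53 (SE 0.09, adjusted p 0.00904) in WT cells. Pold1, the catalytic subunit of the lagging-strand polymerase, fell by 0.54 in KO cells and by 0.45 in WT cells. Pold2 and Pole2 passed in KO cells (log2 changes −0.52 and −0.63) and not in WT cells (−0.25 and −0.48), and the difference between genotypes did not pass for either.

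Pcna, in contrast to Lig1, did not pass in either genotype. It had 297 and 196 CPM under sh1, 353 and 235 CPM under sh10 and 414 and 258 CPM under the control in KO cells, and 307 and 184, 380.0 and 249, and 431 and 241 CPM for the same hairpins in WT cells. The hairpins lay below the control except for sh10 in WT experiment 2, and the log2 changes were −0.22 (SE 0.11, adjusted p 0.272) in KO cells and −0.16 (SE 0.11, adjusted p 0.465) in WT cells. Pold3, Pole, Rpa1 and Rpa2 did not pass in either genotype.

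Both subunits of ribonucleotide reductase fell in KO cells, and Rrm1 fell in WT cells too. Rrm1 had the smallest p of all 36 genes in KO cells, with 280.4 and 119 CPM under sh1, 358 and 115 CPM under sh10 and 488 and 236 CPM under the control. In WT cells Rrm1 had 335 and 142 CPM under sh1, 367.5 and 167 CPM under sh10 and 544.5 and 258 CPM under the control. Within each experiment the hairpins lay below the control, with log2 changes of −0.73 (SE 0.10, adjusted p 0.00325) in KO cells and −0.58 (SE 0.10, adjusted p 0.00792) in WT cells. Rrm2 fell by 0.67 in KO cells (adjusted p 0.0172), and its log2 change in WT cells was −0.50 (adjusted p 0.0561). Rrm2 had 216 and 117 CPM under sh1, 251 and 96.7 CPM under sh10 and 364.5 and 193 CPM under the control in KO cells, again with the control highest in each experiment. Tyms, which makes thymidylate, had 105 and 30.9 CPM under sh1, 98.9 and 36.9 CPM under sh10 and 124.5 and 61.3 CPM under the control in KO cells. Its hairpin libraries also lay below the control, with log2 changes of −0.48 (adjusted p 0.0985) in KO cells and −0.40 (adjusted p 0.171) in WT cells. Tk1, which salvages thymidine, had log2 changes of −0.43 (adjusted p 0.0782) in KO cells and −0.04 (adjusted p 0.919) in WT cells.

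Chaf1a, the large subunit of the histone chaperone that follows the fork, had 53.3 and 23.4 CPM under sh1, 58.7 and 23.1 CPM under sh10 and 92.0 and 38.0 CPM under the control in KO cells. In WT cells it had 61.7 and 25.3 CPM under sh1, 55.0 and 29.6 CPM under sh10 and 95.7 and 58.6 CPM under the control. The hairpins lay below the control in each experiment, with log2 changes of −0.63 (SE 0.13, adjusted p 0.0174) in KO cells and −0.80 (SE 0.13, adjusted p 0.00682) in WT cells. Its partner Chaf1b did not pass (−0.24 in KO cells and −0.18 in WT cells). Tipin had 66.6 and 31.0 CPM under sh1, 70.2 and 36.7 CPM under sh10 and 119 and 78.0 CPM under the control in KO cells, a log2 change of −0.92 (SE 0.15, adjusted p 0.00725). In WT cells its change was −0.68 (SE 0.15, adjusted p 0.0239). Its partner Timeless did not pass, with SEs of 0.23. Uhrf1 fell by 0.61 in KO cells and by 0.62 in WT cells, and Dnmt1 fell by 0.41 and by 0.36. In KO cells Uhrf1 had 167 and 72.9 CPM under sh1, 177 and 44.0 CPM under sh10 and 237 and 108.5 CPM under the control. In WT cells Dnmt1 had 513.5 and 283 CPM under sh1, 653.5 and 381 CPM under sh10 and 790.5 and 459.5 CPM under the control (adjusted p 0.0262). Both genes were highest under the control in each experiment.

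**Figure D4:**
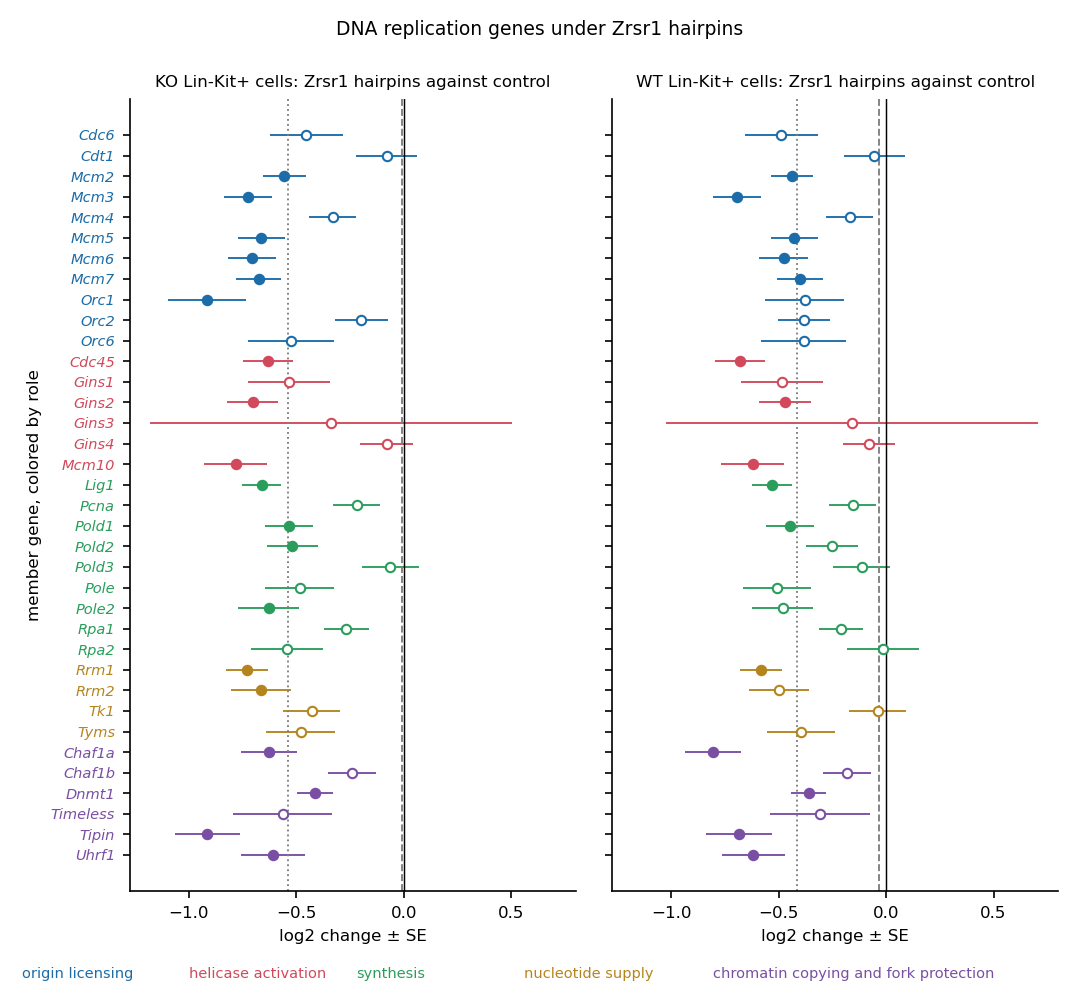
Log2 change of each gene under the Zrsr1 hairpins against the control hairpin with its SE, in KO (left) and WT (right) Lin-Kit+ cells, 4 hairpin and 2 control libraries each, filled where the adjusted p was under 0.05. All 36 points lie left of 0 in both panels, around dotted medians of −0.54 in KO cells and −0.41 in WT cells, and Gins3 has the widest bar.

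The hairpin calls rest on the block for experiment and on 2 control libraries per genotype. Without that block 0 of the 36 genes, and 0 of all tested genes, passed in either genotype, with medians of −0.50 in KO cells and −0.41 in WT cells. DESeq2 with the block called 23 of the genes in KO cells and 19 in WT cells, where it called 14.4% of all tested genes in each. Without the KO control of experiment 1 the count in KO cells was 10, and without that of experiment 2 it was 1. In WT cells the count was 3 without the control of experiment 1, 0 without the control of experiment 2, 5 without sh1 of experiment 2, 5 without sh10 of experiment 1 and 9 without sh10 of experiment 2. With sh1 alone 15 genes fell in KO cells and 10 in WT cells, where 2.52% and 1.90% of tested genes fell. With sh10 alone 16 fell in KO cells and 7 in WT cells, where 4.24% and 4.73% of tested genes fell. Both settings were chosen after seeing the data. In WT cells Gins2, Mcm5, Mcm7 and Dnmt1 lost their calls in all 6 fits that left out 1 library. There Mcm2, Mcm6, Pold1 and Uhrf1 lost theirs in 5 of 6, and Mcm10 and Tipin in 4 of 6. In KO cells Pold2 and Uhrf1 lost theirs in 5 of 6 and Rrm2 and Pole2 in 4, while Lig1 kept its call in all 6.

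RNA of markers of other cell types also differed with the hairpins. Of 7 macrophage markers 6 were tested, and 5 rose under the hairpins in each genotype. Of all tested genes 4.62% rose in KO cells and 4.64% in WT cells. The macrophage medians were 2.10 in KO cells and 1.54 in WT cells on the log2 scale. The summed level of the macrophage markers was 1326 to 2260 CPM under sh1, 1227 to 2263 CPM under sh10 and 555 to 939 CPM under the control in KO cells. In WT cells it was 994 to 2194 CPM under sh1, 853 to 1337 CPM under sh10 and 424 to 989 CPM under the control. Clec4f was at 0 in all KO groups and in WT cells under sh1. Mature neutrophil markers lay above the control range under sh10 and not under sh1. They summed to 5861 to 7758 CPM under sh1, 10350 to 23270 CPM under sh10 and 4038 to 9150 CPM under the control in KO cells, and to 4933 to 5750, 13340 to 30060, and 5346 to 5975 CPM for the same hairpins in WT cells. Of 8 tested markers of granulocyte-monocyte progenitors, 5 fell in KO cells and 2 in WT cells, where 4.38% and 4.11% of tested genes fell. Of 8 stem cell markers 1 fell in each genotype, with medians of −0.83 in KO cells and −0.73 in WT cells. Of 13 erythroid markers 0 passed in KO cells and 3 fell in WT cells. Of 8 mast cell and basophil markers 2 rose and 1 fell in KO cells, and 1 rose and 2 fell in WT cells. The part of these differences in the lower replication genes was not tested.

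No replication gene passed between the genotypes in Lin-Kit+ cells. Under the control hairpin 0 of 36 passed in KO against WT cells, where 0.00561% of tested genes passed. The count at an unadjusted p under 0.05 was 0, against 2.7% of tested genes. DESeq2 called 0, and the median log2 change was −0.04. Zrsr2 itself had a log2 change of −4.84 and an adjusted p of 1 there, so a strong change can go uncalled with 2 libraries a group. The smallest p-values were those of Orc2, with 85.1 and 37.7 CPM in KO cells and 100 and 51.4 CPM in WT cells, Chaf1a, with 92.0 and 38.0 CPM in KO cells and 95.7 and 58.6 CPM in WT cells, and Cdc6, with 63.6 and 30.4 CPM in KO cells and 70.9 and 44.1 CPM in WT cells. Each was lower in KO cells in both experiments, with log2 changes of −0.27 to −0.29 and adjusted p-values of 1. Under the Zrsr1 hairpins 0 of 36 passed in KO against WT cells, where 0.028% passed, while 13 of the 36 had an unadjusted p under 0.05, against 6.67% of tested genes, 32 of 36 estimates were negative, against 49.8%, and the median was −0.17 against 0.00 for all tested genes. DESeq2 called 0. The smallest p was that of Tk1, with 52.0 and 24.6 CPM under sh1 and 50.7 and 17.1 CPM under sh10 in KO cells, and 63.9 and 27.5 CPM and 68.1 and 37.6 CPM in WT cells. Within each hairpin and experiment the KO library was the lower one, with a log2 change of −0.45 (SE 0.11, adjusted p 0.535). The change under the hairpins, KO minus WT, passed for 0 of 36 genes, where 0% of tested genes passed, and DESeq2 called 0. It had an unadjusted p under 0.05 for 0 of the genes, against 2.97% of tested genes. Its smallest p was that of Rpa2, which had 58.4 and 29.3 CPM under sh1, 71.3 and 33.5 CPM under sh10 and 82.4 and 58.9 CPM under the control in KO cells, and 61.6 and 34.9, 77.3 and 66.3, and 84.6 and 47.0 CPM for the same hairpins in WT cells (difference −0.53, SE 0.24, adjusted p 1). In WT experiment 2 its sh10 library lay above the control.

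The 2 hairpins differed for 1 of the genes. In sh1 against sh10 over both genotypes 1 of 36 genes fell and 0 rose, where 5.33% of tested genes fell and 6.11% rose, with a median log2 change of −0.09 against −0.02. The gene was Pold3, an accessory subunit of the lagging-strand polymerase, with 61.7 and 46.5 CPM under sh1 and 78.9 and 61.7 CPM under sh10 in KO cells, and 58.0 and 56.4 CPM under sh1 and 104 and 70.9 CPM under sh10 in WT cells. Each sh1 library lay below the sh10 library of its genotype and experiment, with a log2 change of −0.47 (SE 0.11, adjusted p 0.0221). Dnmt1 and Pcna came next, with log2 changes of −0.23 and −0.30 and adjusted p-values of 0.0581 and 0.0595. In KO cells Dnmt1 had 470.1 and 280.0 CPM under sh1 and 571.5 and 266 CPM under sh10, so that sh1 was lower in experiment 1 and not in experiment 2. The call of Pold3 was lost in 6 of 8 fits that left out 1 library, with adjusted p-values up to 0.0928, and it held without sh10 of KO experiment 1 (0.0197) or sh1 of WT experiment 2 (0.0183). Those fits called 0 of the genes without sh1 or sh10 of KO experiment 2 or sh10 of WT experiment 2, and 2 without sh10 of KO experiment 1. DESeq2 called 5 of the genes, where it called 17.1% of all tested genes.

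In lists of other cell cycle genes some members fell under the hairpins too. Of 40 tested genes among 41 other replication genes, 15 fell and 0 rose in KO cells, with a median log2 change of −0.46. In WT cells 12 fell and 1, Orc5, rose, with a median of −0.28. Hells, a chromatin remodeller, fell by 0.84 in KO cells and by 0.70 in WT cells, and Top2a, the topoisomerase that untangles new chromosomes, fell by 0.55 and by 0.63. Of 20 mitosis genes 15 fell in KO cells and 14 in WT cells, with medians of −0.64 and −0.62, among them the spindle motor Kif11, which fell by 0.85 in KO cells and by 0.84 in WT cells, and the kinase Aurkb. Of 21 regulators of S phase entry 5 fell in each genotype, namely Cdk4, Ccna2, Rbl1, Tfdp1 and Cdc25a, while the inhibitor Cdkn1a rose in KO cells and the cyclin Ccnd3 in WT cells. In KO against WT cells of any type, 0 genes of these lists passed. Of the 40 tested other replication genes, 33 had a negative estimate in CMP, 20 in GMP, 20 in MEP and 23 in MEF. Over all tested genes 50.4%, 51.6%, 53.6% and 52.9% were negative there. The share of lower calls over all tested genes is that given above for each genotype.

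Most introns of the replication genes were almost fully spliced in WT progenitors. Of the 532 introns 525 had at least 50 reads in every progenitor library. Their median MSI over WT progenitors was 1.36, against 1.53 for all 75021 such introns, and 3.05% of them, 16 introns, had an MSI above 10, against 7.54% of all introns. Highest was an intron of Orc6 at chr8:85299993-85302795 (mm10, plus strand) with an MSI of 46.8, which exons of other Orc6 transcripts overlap. Next came Pold1 intron 19 with an MSI of 20.8, which lies within an exon of an annotated retained-intron transcript, Pold3 intron 9 with 15.0, Pold1 introns 22 and 23 with 14.2 and 14.1, Orc6 intron 2 with 12.6, and Pold3 introns 2 and 1 with 12.6 and 12.2. None of these 8 passed in a comparison of genotypes or hairpins by edgeR.

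Retention was tested per intron from exon-intron against spliced reads. In KO against WT cells 0 of 395 tested introns passed in CMP, GMP or MEP, where 0.00641%, 0.00801% and 0.0048% of 62446 introns passed. At an unadjusted p under 0.05 there were 26, 9 and 3, against 3845, 1690 and 2531 of the 62446 introns. In MEF 0 of 119 and in Lin-Kit+ cells under the control hairpin 0 of 282 passed, where 0% and 0.00214% of introns passed. There 2 and 6 had an unadjusted p under 0.05, against 1384 of 32573 and 1344 of 46630 introns. Under the hairpins against the control, 0 of 282 passed in KO cells and in WT cells, where 0% and 0.00214% passed. An unadjusted p under 0.05 was held by 11 and 5, against 2448 and 1491 of 46630 introns. limma called 0 in each of these comparisons. In GMP against CMP, MEP against GMP and sh1 against sh10, 0 introns passed as well, where 0.0817%, 0.48% and 0.00643% passed, and limma called 0. Here 22, 24 and 17 had an unadjusted p under 0.05, against 3882, 4384 and 2989 of all tested introns. Differences between the KO effects of cell types and between the hairpin effects of genotypes passed for 0 introns, where at most 0.0016% passed. For these 3 to 18 had an unadjusted p under 0.05, against 1692 to 3269 of all tested introns. Between the WT progenitors 1 intron passed, Mcm7 intron 3, with an MSI of 0.512, 0.233 and 0.437 in MEP and 1.38, 0.827 and 1.39 in CMP, where 0.404% of introns fell in MEP against CMP (log2 change −1.64, SE 0.53, adjusted p 0.0312). limma did not call it. It held without WT MEP 1 (adjusted p 0.048) or WT CMP 2 (0.0342) and was lost without WT MEP 2 (0.203), WT MEP 3 (0.136), WT CMP 1 (0.105) or WT CMP 3 (0.103). Without WT MEP 1 another intron passed as well. A single intron passed in GMP against CMP without WT CMP 1 and in MEP against GMP without WT MEP 2.

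Where no intron passed, the smallest p-values were spread over different genes. They belonged to Mcm10 intron 2 and Tk1 intron 2 in KO against WT MEP, to Dnmt1 intron 29 and a first intron of Pold3 in MEF, and to Pold1 intron 26 and Pcna intron 4 in Lin-Kit+ cells under the control hairpin. Under the hairpins they belonged to Cdc45 intron 12 and Timeless intron 19 in KO cells and to Pole2 intron 8 and Mcm10 intron 4 in WT cells. Pole2 intron 14 and Mcm4 intron 6 led in GMP against CMP, Rpa1 intron 9 and Mcm10 intron 2 in MEP against GMP, and Mcm10 intron 14 and Timeless intron 9 in sh1 against sh10. Their adjusted p-values ran from 0.124 to 1.

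In WT MEF against WT progenitors 45 of 362 tested introns fell and 14 rose, where 14.4% of 59542 introns fell and 2.23% rose. Those with the smallest p were Mcm7 intron 6, with a log2 change of 1.90, Mcm6 intron 6 with −1.71, Tk1 intron 4 with −1.22, Pcna intron 3 with −1.22 and Pcna intron 2 with −1.79. The 59 calls fell to 35, 28 and 36 without WT MEF 4, 5 or 6.

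The intron that passed between genotypes was intron 11 of Cdc45, in KO against WT Lin-Kit+ cells under the Zrsr1 hairpins, and its downstream neighbour intron 12 had the next smallest p. The exon between them, exon 12 of 20 in transcript ENSMUST00000000028.13, lies at chr16:18795095-18795226 (mm10, minus strand) and is 132 bases long. Intron 11 lies at chr16:18795227-18795824 and intron 12 at chr16:18794861-18795094, and no exon of an annotated transcript overlaps either. Whether either intron is U12-type was not determined. The exon is shown because it lies between the intron that passed and the one with the next smallest p, with the exon in capitals and 30 bases of the exons spliced to it on either side in lower case.
Cdc45 exon 12: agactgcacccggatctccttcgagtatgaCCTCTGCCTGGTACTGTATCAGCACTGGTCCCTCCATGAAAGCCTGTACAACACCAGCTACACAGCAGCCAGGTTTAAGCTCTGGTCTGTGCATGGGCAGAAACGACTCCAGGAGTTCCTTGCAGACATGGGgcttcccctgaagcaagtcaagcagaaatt

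The MSI of intron 11 was 16.2 and 6.67 under sh1 and 22.9 and 17.9 under sh10 in KO cells, and 3.41 and 0 under sh1 and 3.38 and 1.78 under sh10 in WT cells. Each KO library lay above all 4 WT libraries. The log2 change was 3.38 (SE 0.62, edgeR adjusted p 0.0213), the only one of 282 introns to pass upward, where 0.0386% of 46630 introns did, and 0 fell. The reads behind it are few: the KO sh10 library of experiment 1 had 95 and 72 reads at the 2 boundaries and 281 spliced reads, and the WT sh1 library of experiment 2 had 0, 0 and 79. Under the control hairpin the MSI was 10.9 and 4.62 in KO cells and 4.80 and 4.60 in WT cells. For intron 12 it was 12.9 and 0 under sh1 and 12.6 and 10.2 under sh10 in KO cells, against 1.48 and 1.89 under sh1 and 0.237 and 0 under sh10 in WT cells. The library of KO sh1 in experiment 2 overlapped the WT range, and intron 12 did not pass (log2 change 3.02, SE 0.93, adjusted p 0.116).

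The call for intron 11 is not firm. limma gave an adjusted p of 0.846, a minimum of 10 exon-intron reads gave 0.0582 and the fit without the block gave 0.998, while sh1 alone gave 0.963 and sh10 alone 0.312. Leaving out 1 library kept the log2 change between 2.71 and 4.06, with adjusted p-values of 0.00921 to 0.266. The call was lost without KO sh10 of experiment 1 (0.103) or 2 (0.12), KO sh1 of experiment 1 (0.197), or WT sh10 of experiment 1 (0.203) or 2 (0.266).

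The same introns had the smallest p-values in CMP and GMP, where they did not pass. The MSI of intron 11 was 4.90, 5.60 and 3.56 in KO CMP and 2.04, 2.79 and 0.879 in WT CMP, and 5.79, 7.09 and 5.51 in KO GMP and 1.77, 2.01 and 2.76 in WT GMP. KO and WT libraries did not overlap in either cell type, and the log2 changes were 1.45 in CMP (adjusted p 0.334) and 1.55 in GMP (adjusted p 0.726). For intron 12 the MSI was 3.56, 2.17 and 2.21 in KO CMP and 0.179, 1.36 and 0.147 in WT CMP, and 2.05, 2.95 and 3.29 in KO GMP and 0.440, 0.416 and 0.388 in WT GMP, also without overlap (adjusted p 0.314 in CMP and 0.71 in GMP). In MEP intron 11 had 5.59, 2.82 and 5.77 in KO cells and 2.90, 4.32 and 1.59 in WT cells, with overlap. In MEF it had 3.66, 3.60 and 2.17 in KO cells and 4.41, 3.70 and 4.93 in WT cells. In MEF every KO library lay below every WT library. That order rests on 2 to 8 reads at a boundary, and 3.66 in KO MEF nearly meets 3.70 in WT MEF. No direction is read from it. Intron 12 had 1.205, 0.356 and 2.69 in KO MEF and 0.699, 1.05 and 1.22 in WT MEF, with overlap. The other 18 listed introns of Cdc45, pooled, had mean MSIs of 1.86 to 3.15 across the groups.

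**Figure D5:**
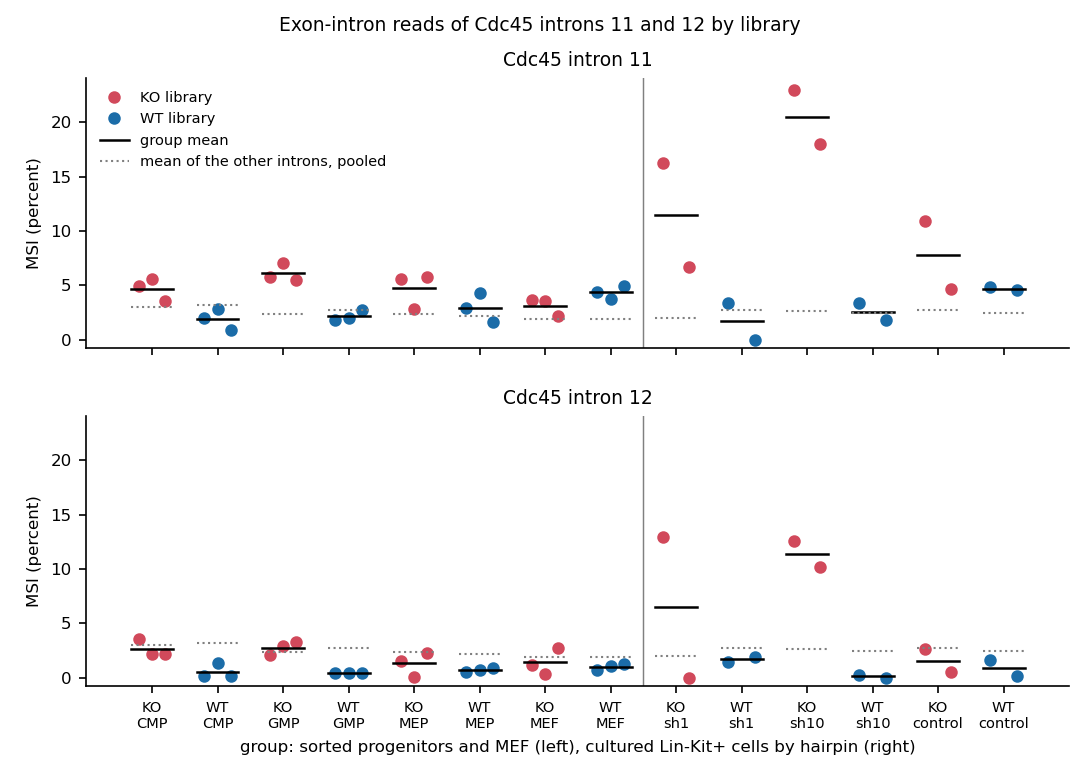
MSI in percent of Cdc45 introns 11 and 12 in every library, KO in red and WT in blue, with the group mean in black and the pooled other 18 introns dotted. For intron 11 the KO libraries under sh1 and sh10 lie at 6.67 to 22.9, above the WT libraries under the same hairpins at 0 to 3.41.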

How the data were processed

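RNA was sequenced from 18 libraries of sorted progenitors and 6 of fibroblasts with a TruSeq kit and from 12 of Lin-Kit+ cells with a NEBNext Ultra kit, per the labels' protocols. The deposited tables hold whole-number counts of reads at both exon-intron boundaries and of spliced reads for each intron, per the file headers. The authors' tables also give the fraction of an intron that is covered, which was not used, and a percent value (MSI). Coordinates are on mm10, which the submitters' processing notes name. How reads were aligned, counted and assigned to a strand is not given in the sources used here, so reads of a gene and of its antisense partner may be mixed.

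Spliced counts were summed over the introns of a gene and tested with edgeR 4.0.16 in R 4.3.3 (TMM, filterByExpr, quasi-likelihood test, Benjamini-Hochberg adjustment over all genes, threshold 0.05), with 1 fit each for progenitors, MEF, WT progenitors with MEF, and Lin-Kit+ cells. Lin-Kit+ fits carried the experiment as a block, since the labels name it; libraries of the same experiment deviated together (r 0.321 to 0.42 over 30 pairs). Sorted cells with the same number and genotype come from the same mouse, and their deviations had r −0.0416 to 0.0843 over 18 pairs. CPM values use library totals without TMM factors. Introns were tested with edgeR on exon-intron against spliced counts, and the size of a change is the difference of log2((exon-intron + 0.5) / (spliced + 0.5)) with its SE from limma 3.58.1. Alternatives were RLE scaling, library totals, DESeq2 1.42.0, no filter, the median over introns, limma, at least 10 exon-intron reads, other blocks, each hairpin alone and leaving out each library. Both tests were tried on simulated data. The simulated counts had a fixed spread and no difference between experiments, so they do not show how the hairpin calls behave.

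The 37 genes, the gene lists, the markers and the tests were chosen with earlier results of these data known. Values by library were given for genes called between genotypes or hairpins (the 8 with the smallest p where over 8), for up to 3 genes with the smallest p where fewer than 3 were called, and for Mcm2, Pcna, Rrm2, Tyms, Uhrf1 and Gins3; between cell types the 6 largest called changes in each direction were named. Genes of the other lists named as examples were chosen after their values were seen. Introns named were the 8 with the highest MSI and those with the smallest p. Pole2 shares 1 intron with another gene, so its sum is uncertain to that extent.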

Additional observations from a re-analysis of the deposited data

How the results depend on the processing

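No called replication gene and no called intron among those named changed sign under any setting tried. In WT GMP against WT CMP 4 genes passed with the median over introns and 15 with library totals, in place of 7. For sh1 against sh10 5 passed by DESeq2, 2 with library totals, and 0 with the median over introns or with no replicate block, in place of 1. The hairpin calls in KO and WT cells fell to 0 with no replicate block, and those in WT cells to 7 with sh10 alone. Leaving out 1 library gave 1 to 20 genes for the hairpins in KO cells, 0 to 14 for those in WT cells and 0 to 2 for sh1 against sh10. Of the introns, the call in MEP against CMP fell to 0 by limma and ran from 0 to 2 without 1 library. The call in KO against WT cells under the hairpins fell to 0 by limma, with at least 10 exon-intron reads, with no replicate block and with each hairpin alone, and ran from 0 to 2 without 1 library. Without 1 library there were 0 to 1 introns in GMP against CMP and in MEP against GMP, and 28 to 62 in MEF against progenitors. The causes were not tested, beyond the fewer libraries or reads in such fits. Whether the animal or embryo number pairs KO with WT cells was not settled. Same-number r was 0.0107 to 0.0359 in CMP and −0.00687 to 0.0422 in GMP. It was 0.0323 to 0.101 in MEP and −0.0769 to 0.381 in MEF. For different numbers r was −0.0514 to 0.0315, −0.0461 to 0.0119, −0.0901 to 0.00811 and −0.38 to 0.188 in that order. Only in MEP did all same-number pairs lie above all others. With the number as a replicate block 0 of the 36 genes passed in KO against WT cells of each type. With the mouse as a replicate block 26 genes passed in MEP against CMP, 25 in MEP against GMP and 7 in GMP against CMP. Of the calls without that block Gins4 was lost in MEP against GMP (adjusted p 0.0545), where another gene passed, and the others in these comparisons held. Depth limits Gins3 and the boundary reads of most introns, above all in experiment 2.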
